A study of Homo sapiens with 12 samples.

Results

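U251, an established human glioblastoma cell line, was transfected with an siRNA against *PD-L1* (siPDL1-1) or with a control siRNA (siNC), and poly(A) RNA was sequenced. The comparison described here is siPDL1-1 against siNC in cells that received no IFNγ. Its members are the 4 libraries whose labels give these siRNAs and no treatment, 2 with each siRNA, of 12 libraries in the series. The other libraries are 2 unstimulated libraries with another siRNA against *PD-L1* (siPDL1-2) and 6 libraries of the same 3 transfections stimulated with IFNγ at 100 U/ml for 24 h, and they are used only where stated. The labels give the siNC cells as wild type and the siPDL1-1 cells as *PD-L1* knockdown. All groups are 1 cell line, all were transfected, and no library of untransfected cells was analysed here. The 2 libraries of a group came from separate experiments per the study, and no label ties a library of one group to a library of another.

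PD-L1, encoded by *CD274*, is a membrane ligand that binds PD-1 on T cells and restrains them. An siRNA guides the RNA-induced silencing complex to a complementary mRNA, which is cut, and short double-stranded RNA can also act on other transcripts through partial complementarity or be recognized by cytoplasmic RNA sensors. Recognition by such sensors is known to switch on type I interferons, which act through the JAK-STAT pathway on a shared set of antiviral genes, the interferon-stimulated genes.

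Reads on genes numbered 19945619 and 38704685 in the siNC libraries and 33791141 and 41611658 in the siPDL1-1 libraries. Values are the normalized CPM values that the authors deposited. They are counts scaled for each library, and their columns do not share 1 total, so the scaling was not by reads on genes alone. In these values, 1 read was worth between 0.0235 and 0.0490 CPM. Of 16 glioma and astroglial markers, 14 were at 1 CPM or more in both groups, and their summed level was 5666 to 5756 CPM with siNC and 5832 to 5854 CPM with siPDL1-1. Of 14 immune cell markers, only the macrophage and lysosomal gene *CD68* reached 1 CPM in both groups, *CD3E*, *MS4A1*, *FCGR3A* and *TYROBP* were at 0 in all 4 libraries, and the sum was 29.1 to 30.01 CPM with siNC and 38.8 to 41.0 CPM with siPDL1-1. For 10 neuronal and endothelial markers the sum was 27.8 to 29.9 CPM with siNC and 33.2 to 33.4 CPM with siPDL1-1. Transcripts of the mitochondrial genome held 4.85% and 4.94% of the siNC reads and 6.14% and 6.17% of the siPDL1-1 reads, so the groups did not overlap.

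*CD274* (ENSG00000120217, GRCh38 chr9:5450503-5470566, plus strand) was measured at 4.60 and 4.91 CPM with siNC and at 2.67 and 2.73 CPM with siPDL1-1. The groups did not overlap, and the level with siPDL1-1 was 0.568 times that with siNC. The log2 fold change was -0.64 with a standard error of 0.08 (limma, FDR = 1.76e-05). With siPDL1-2 the gene was at 3.57 and 3.45 CPM. A direct test of siPDL1-1 against siPDL1-2 gave a log2 fold change of -0.29 (limma, FDR = 0.00865), which stayed under the fold threshold given below. Reads were counted without regard to strand, and the antisense gene *AL162253.2*, at 1.73 CPM on average, overlaps *CD274*. Of the 14 genes of the *PD-L1* locus, *CD274* was the only one called. Its neighbor *JAK2*, a kinase of cytokine receptors, was at 13.9 and 15.5 CPM with siNC and 23.3 and 21.3 CPM with siPDL1-1, and its log2 fold change of 0.57 (limma, FDR = 3.07e-05) was just under the fold threshold. *PDCD1LG2*, which encodes the related ligand PD-L2, was at 1.37 and 1.57 CPM with siNC and 1.07 and 1.18 CPM with siPDL1-1, a log2 fold change of -0.22 (limma, FDR = 0.108).

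Of 17982 genes tested, 459 (2.55%) rose and 261 (1.45%) fell with siPDL1-1, at an FDR under 0.01 and a fold change over 1.5 on the log2(CPM + 1) scale, the scale of every log2 fold change given here. A gene is said to be called, to rise or to fall where it passed both thresholds. The changes were mostly modest, with a median log2 fold change of 0.73 among the genes that rose and -0.69 among those that fell, beside 0.02 over all genes tested. Only 55 genes rose and 23 fell by over 2-fold. Without the fold threshold, 1763 genes were higher and 1616 lower at the same FDR. Over all genes tested, 9580 had a positive and 8399 a negative log2 fold change. At an unadjusted p under 0.05 in limma, 6996 of the 17982 genes differed, which is the background for list counts at that p below. For the counts of called list genes, the background is the 2.55% that rose and the 1.45% that fell. A list whose called share is near these does not stand out by its count. Protein-coding genes accounted for 429 of the increases and 236 of the decreases, and 4.59% of those tested were called, against 1.53% of the long noncoding RNAs. The log2(CPM + 1) scale compresses changes at low CPM, so these shares also depend on expression level. Without the shallower siNC library, 639 genes were called. The largest changes sat at low and middle expression levels, as the plot of level against change shows.

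**Figure D1:**
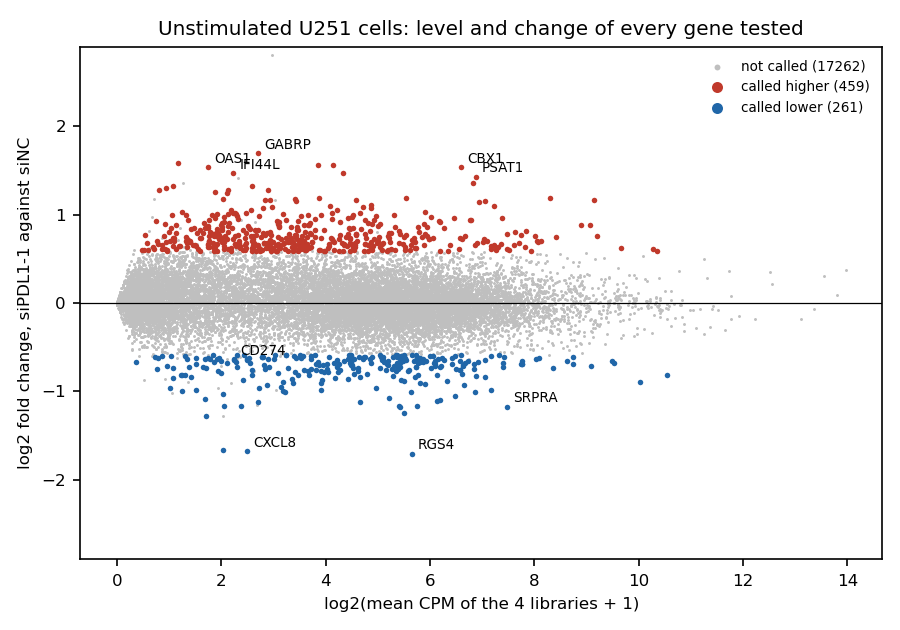
Each point is 1 of the 17982 genes tested, with log2 of the mean CPM of the 4 libraries plus 1 on the horizontal axis and the log2 fold change of siPDL1-1 against siNC on the vertical axis. Red points are the 459 genes called higher, blue points the 261 called lower and grey points the genes not called, and *CD274* lies near the edge of the called genes, with RGS4 and CXCL8 far below it.

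The genes with the largest increases had varied roles. *GABRP*, a subunit of GABA-A receptors, was at 2.20 and 1.90 CPM with siNC and 8.90 and 8.92 CPM with siPDL1-1, which gave the largest log2 fold change of a called gene above 1 CPM (1.70, FDR = 4.46e-08, limma). *CBX1*, a heterochromatin protein that binds methylated histone H3, was at 46.8 and 49.4 CPM with siNC and 145 and 140 CPM with siPDL1-1 (log2 fold change 1.54, FDR = 2.51e-11). Of the 8 *CBX* genes tested, *CBX1* was the only one called. *MAPRE1*, which encodes the microtubule plus-end protein EB1, was at 63.6 and 60.5 CPM with siNC and 161 and 162 CPM with siPDL1-1. *PSAT1*, an enzyme of serine synthesis, was at 63.9 and 60.8 CPM with siNC and 169 and 171 CPM with siPDL1-1. *NEK7*, a kinase of mitosis and of the NLRP3 inflammasome, was at 6.12 and 6.5 CPM with siNC and 19.9 and 21.4 CPM with siPDL1-1. These 5 genes were also high in both siPDL1-2 libraries, at 6.66 and 8.03 CPM for *GABRP*, 138 CPM in each for *CBX1*, 164 and 162 CPM for *MAPRE1*, 216 and 219 CPM for *PSAT1* and 31.1 and 34.0 CPM for *NEK7*. The comparisons of the 2 siRNAs with siNC share the control libraries.

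By contrast, *STMN3*, a microtubule-destabilizing protein of neurons, was at 10.7 and 8.78 CPM with siNC, 28.6 and 28.9 CPM with siPDL1-1 and 10.7 CPM in each siPDL1-2 library. *PALD1*, a phosphatase-like protein, was at 7.59 and 8.30 CPM with siNC, 25.7 and 25.3 CPM with siPDL1-1 and 12.0 and 11.8 CPM with siPDL1-2. Both were higher with siPDL1-1 than with siPDL1-2 when the siRNAs were compared directly, with log2 fold changes of 1.34 and 1.04 (limma, FDR = 1.35e-07 and 4.95e-07). *DISP2* was at 2.89 and 3.85 CPM with siNC and 9.95 and 9.23 CPM with siPDL1-1. The other members of the 15 largest increases were *OAS1*, *IFI44L*, *OASL*, *IFIT3* and *OAS2*, which are described with the interferon-stimulated genes, and the noncoding genes *AL139300.1* and *AC048338.1*. *AL139300.1* lies within *KLC1* on the same strand and lost its call without siNC replicate 1 (FDR = 0.0528), siNC replicate 2 (FDR = 0.0298) or siPDL1-1 replicate 1 (FDR = 0.0116), and *AC048338.1*, which overlaps *DIABLO* and *VPS33A*, lost it without siPDL1-1 replicate 2 (FDR = 0.0122).

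The largest decrease was that of *RGS4*, a regulator that shuts off G protein signaling, from 73.2 and 78.3 CPM with siNC to 23.5 and 21.6 CPM with siPDL1-1 (log2 fold change -1.71, FDR = 2.42e-09, limma). *FILIP1*, which interacts with the actin crosslinker filamin A, fell from 5.88 and 4.63 CPM to 1.28 and 0.683 CPM. *IFRD2*, a protein of idle ribosomes, fell from 61.2 and 64.8 CPM to 26.2 and 25.7 CPM. *CNR1*, the cannabinoid receptor of the brain, fell from 5.63 and 6.81 CPM to 2.50 and 1.95 CPM. With siPDL1-2, *RGS4* was at 24.5 and 25.1 CPM and *FILIP1* at 3.07 and 2.81 CPM. *CILK1*, *ATP1B1*, *ANKRD33B*, *SFTA1P* and *PAF1* were also among the 15 largest decreases, with log2 fold changes between -1.18 and -1.10. Of these, *CILK1*, *ATP1B1* and *PAF1* overlap a gene on the other strand, *FBXO9*, *NME7* and *SAMD4B*, and *FILIP1* overlaps *TMEM30A-DT*.

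A further set of decreases separated the siRNAs. *SRPRA*, the receptor for the signal recognition particle at the endoplasmic reticulum, was at 247 and 242 CPM with siNC, 108 CPM in each siPDL1-1 library and 256 and 254 CPM with siPDL1-2. *RMND5A*, a subunit of the CTLH ubiquitin ligase, was at 33.7 and 33.2 CPM with siNC, 14.9 and 14.7 CPM with siPDL1-1 and 47.7 and 48.6 CPM with siPDL1-2. *CD164*, a sialomucin of the cell surface, was at 99.1 and 91.2 CPM with siNC, 45 and 41.8 CPM with siPDL1-1 and 171 and 180 CPM with siPDL1-2. *INSIG1*, which retains the sterol sensor SCAP in the endoplasmic reticulum, was at 154 and 152 CPM with siNC, 76.4 and 75.6 CPM with siPDL1-1 and 151 and 155 CPM with siPDL1-2. Compared directly with siPDL1-2, the log2 fold changes were -1.24, -1.63, -1.99 and -1.0 in the same order (limma, FDR from 5.36e-11 to 5.22e-06). This comparison uses the same siPDL1-1 libraries as the comparison with siNC. Reads of *FOXRED1*, on the other strand and at 38.1 CPM on average, could not be separated from those of *SRPRA* where they overlap.

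**Figure D2:**
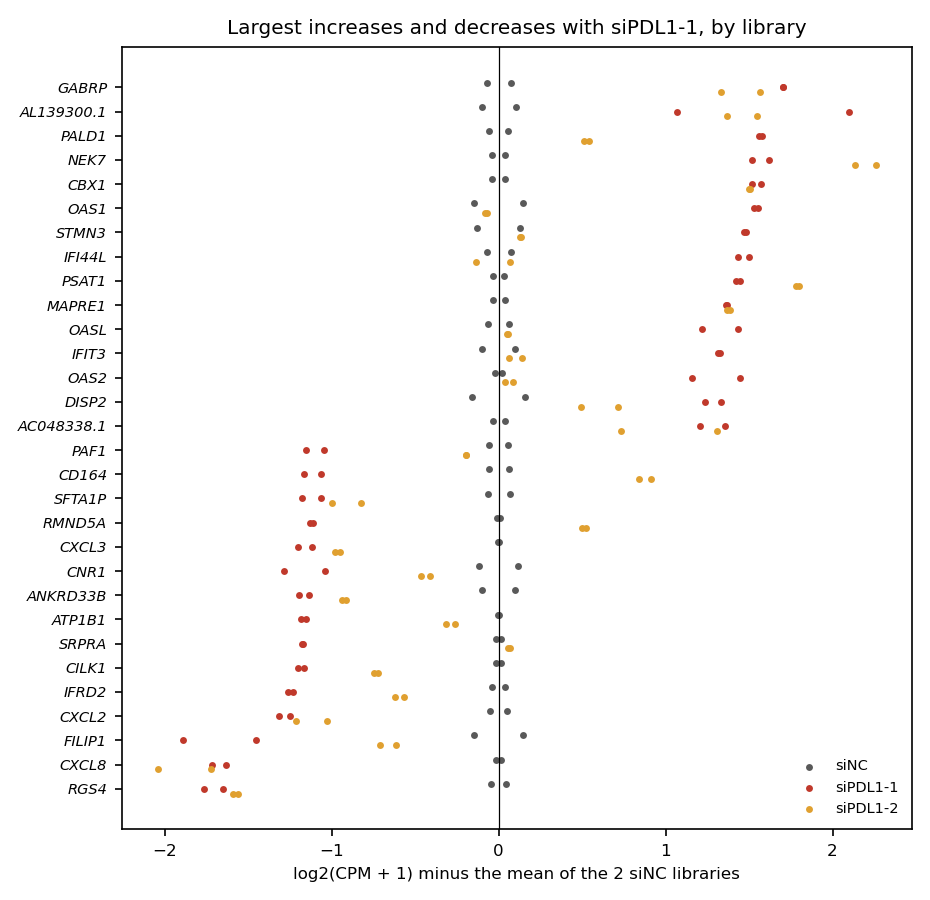
The 15 largest increases and 15 largest decreases with siPDL1-1, with log2(CPM + 1) of each unstimulated library minus the mean of the 2 siNC libraries on the horizontal axis and 1 point per library. The siPDL1-1 points (red) lie apart from the siNC points (grey) for each gene because the rule that chose the genes required it. Of all 17982 genes tested, 6393 were higher and 5621 lower with siPDL1-1 without overlap. The siPDL1-2 points (yellow) lie near the red points for *CBX1*, *MAPRE1* and *RGS4* and near the grey points for OAS1, *STMN3* and *SRPRA*. They lie to the right of the grey points for *CD164* and *RMND5A*.

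Genes of the type I interferon response were among the increases. Of 73 tested genes of a type I interferon list, 14 rose and 0 fell in limma, and the median over the list was 0.20 (log2 fold change). Among them were the antiviral effectors *OAS1*, *OAS2*, *OASL*, *IFIT1*, *IFIT2*, *IFIT3*, *MX2*, *BST2* and *IFITM1*, 9 of the 30 effectors tested. *ISG15* and the genes *IFI44L*, *IFI27*, *IFI6* and *IFI44* made up the rest. Between 12 and 14 genes were called when any 1 of the 4 libraries was left out. Without the fold threshold, 32 genes of the list were higher and 4 lower at the same FDR, beside 1763 higher and 1616 lower of all 17982 genes. At an unadjusted p under 0.05 in limma, 42 genes of the list were higher and 10 lower. edgeR called 15 higher and DESeq2 16, and each called 0 lower.

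The oligoadenylate synthetases make the messenger that activates RNase L. *OAS1* was at 0.539 and 0.886 CPM with siNC and 3.92 and 4.00 CPM with siPDL1-1 (log2 fold change 1.54, FDR = 7.44e-08, limma). *OAS2* was at 0.0979 and 0.127 CPM with siNC and 1.48 and 2.02 CPM with siPDL1-1. *OASL*, a relative without synthetase activity that assists the sensor RIG-I, was at 0.147 and 0.253 CPM with siNC and 2.23 and 1.79 CPM with siPDL1-1. *OAS2* and *OASL* were close to the detection limit in the control cells, with 2 and 5 reads of *OAS2* and 3 and 10 reads of *OASL*, and on the log2(CPM + 1) scale their fold changes of 1.30 and 1.32 understate the change.

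The IFIT proteins bind viral RNA ends. *IFIT1* was at 9.70 and 8.55 CPM with siNC and 19.5 and 18.8 CPM with siPDL1-1, *IFIT2* rose from 3.77 and 3.67 CPM to 9.11 and 10.1 CPM, and *IFIT3* from 2.69 and 2.23 CPM to 7.60 and 7.67 CPM. The lysosomal lipase gene *LIPA*, chosen after its values were seen, overlaps these 3 genes on the other strand and also rose, from 53.9 and 53.6 CPM to 97.2 and 98.7 CPM. Its level with siPDL1-2 was 95.9 and 97.2 CPM, whereas *IFIT1* was at 7.76 and 7.33 CPM and *IFIT3* at 2.61 and 2.81 CPM in those libraries. *BST2*, or tetherin, which holds budding virus at the membrane, rose from 13.9 and 13.4 CPM to 27.5 and 27.7 CPM. *MX2*, a dynamin-like GTPase, was at 0.0490 and 0.278 CPM with siNC and 1.25 and 1.18 CPM with siPDL1-1. *IFITM1*, which blocks viral entry and was the most abundant of the 14 genes, rose from 164 and 157 CPM to 262 and 253 CPM, and it overlaps *IFITM2* on the same strand.

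*IFI44L* was at 1.37 and 1.62 CPM with siNC and 5.74 and 6.05 CPM with siPDL1-1, *IFI27* at 0.636 and 0.481 CPM and 2.41 and 1.95 CPM, and *IFI6* at 17.7 and 19.8 CPM and 33.6 and 32.2 CPM. *IFI44*, at 3.92 and 4.43 CPM with siNC and 7.37 and 6.59 CPM with siPDL1-1, fell under the fold threshold without siNC replicate 1 (log2 fold change 0.55) or siPDL1-1 replicate 1 (0.56). *ISG15*, a ubiquitin-like modifier, was at 14.8 and 17.4 CPM with siNC and 27.0 and 25.7 CPM with siPDL1-1 (log2 fold change 0.68, FDR = 0.00246, limma). The call of *ISG15* was lost without siNC replicate 1 (FDR = 0.0202), siPDL1-1 replicate 1 (FDR = 0.0235) or siPDL1-1 replicate 2 (FDR = 0.0154) and in edgeR's test (FDR = 0.0167). None of the other 7 genes of ISG15 conjugation was called.

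**Figure D3:**
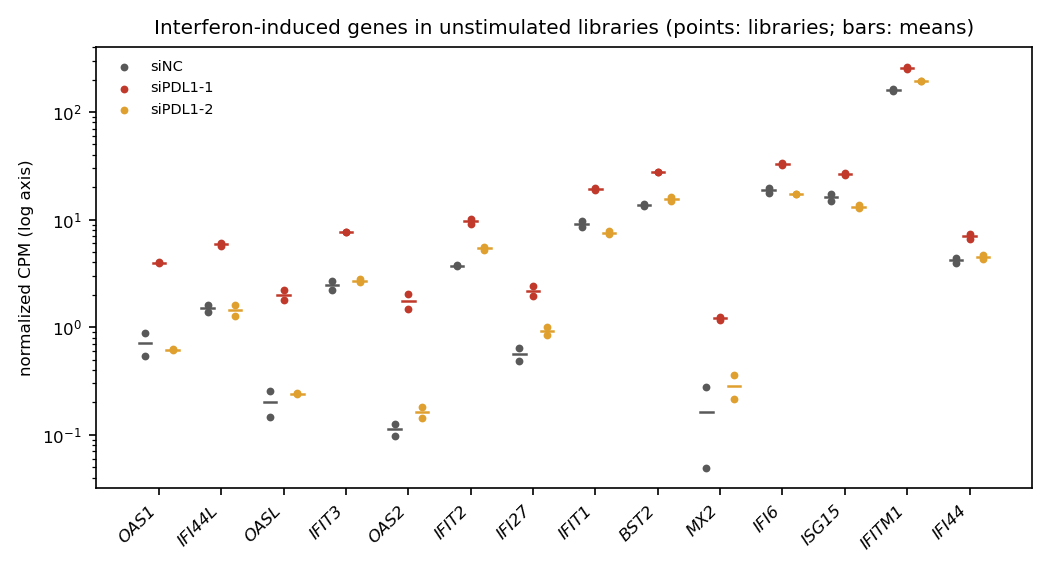
Normalized CPM on a log axis of the 14 genes of the type I interferon list that were called, in the unstimulated libraries, with 1 point per library and a bar at the mean of 2. For each of these called genes both siPDL1-1 points (red) lie above both siNC points (grey), as for 6393 of all 17982 genes tested. For *OAS1*, *OAS2* and *OASL* the siPDL1-2 points (yellow) lie at the level of siNC.

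Against siPDL1-2, 159 of 17982 genes (0.884%) were higher and 624 (3.47%) lower with siPDL1-1. Of the 73 genes of the type I interferon list, 13 were among the higher and 1 among the lower. At an unadjusted p under 0.05 in limma, 8039 of the 17982 genes differed in this comparison. *OAS1* was at 0.623 and 0.610 CPM and *IFI44L* at 1.27 and 1.62 CPM with siPDL1-2, and the direct log2 fold changes of 1.62 and 1.5 (limma, FDR = 1.04e-07 and 4.62e-08) were among the 5 largest increases of that comparison. The other members of its 5 largest increases, *AL035078.4*, *AC099329.1* and *HMOX1*, were not called between siPDL1-1 and siNC, and *AC099329.1* lost its call against siPDL1-2 without siPDL1-1 replicate 1 (FDR = 0.0128) or replicate 2 (FDR = 0.0108). *HMOX1*, heme oxygenase, was at 50.5 and 51.2 CPM with siNC, 54.7 and 51.9 CPM with siPDL1-1 and 18.2 and 18.5 CPM with siPDL1-2. Among the 5 largest decreases against siPDL1-2, beside *CD164* and *RMND5A*, were *AL161665.1*, *MATR3_2* and *AL035461.3*. *AL161665.1* and *MATR3_2* were listed at 0 in both siPDL1-1 libraries, and all 3 lost their call when any 1 of the 4 libraries compared was left out (FDR from 0.021 to 0.0605).

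The other 59 genes of the list were not called, and the examples that follow were chosen after their values were seen. *MX1*, the paralog of *MX2*, was at 5.44 and 4.18 CPM with siNC and 3.02 and 3.88 CPM with siPDL1-1 (log2 fold change -0.38, FDR = 0.0388, limma). *USP18*, which removes ISG15 from proteins, had a log2 fold change of -0.01 (limma, FDR = 0.95). *HERC5*, the ligase that attaches it, was at 14.7 and 14.9 CPM with siNC and 14.71 and 14.97 CPM with siPDL1-1.

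Genes that act upstream of the interferon-stimulated genes were examined next. Of 18 tested genes of double-stranded RNA sensing, 0 were called by limma, edgeR or DESeq2. At an unadjusted p under 0.05 in limma, 7 were higher and 3 lower, beside 6996 of all 17982 genes in either direction. The sensor gene *DDX58*, which encodes RIG-I, was at 11.6 and 12.1 CPM with siNC and 16.7 and 18.9 CPM with siPDL1-1 (log2 fold change 0.55, FDR = 1.47e-05). No read of *IFNB1*, *IFNL1* or *IFNA1* was counted in any of the 4 libraries, which allows a level of up to 0.0706 to 0.147 CPM at 3 reads per library, counting error only. The receptor gene *IFNAR1* was at 23.9 and 23.3 CPM with siNC and 34.2 and 34.5 CPM with siPDL1-1 (log2 fold change 0.52, FDR = 9.68e-06), under the fold threshold. Of 26 JAK-STAT and interferon regulatory factor genes, *IRF9*, the DNA-binding subunit of the complex that acts downstream of type I interferon, rose from 20.4 and 18.4 CPM to 34.0 and 32.1 CPM, and *SOCS2*, a feedback inhibitor of cytokine receptors, fell from 54.4 and 52.0 CPM to 34.4 and 34.2 CPM. The call of *SOCS2* was lost without siNC replicate 1 (log2 fold change -0.58). *STAT2*, a partner of *IRF9*, had a log2 fold change of 0.32, under the fold threshold.

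Genes that respond mainly to IFNγ changed in both directions. Of 33 tested, 2 rose and 1 fell, beside 2.55% and 1.45% of all genes tested, with a median of 0.06. Positive values were found for 22 and negative values for 11, beside 9580 and 8399 of all 17982 genes. Without the fold threshold, 8 were higher and 4 lower at the same FDR. *C1S*, a complement protease, rose from 2.64 and 2.00 CPM to 5.86 and 5.22 CPM and overlaps *EMG1* and *LPCAT3*, of which *LPCAT3* also had a positive log2 fold change of 0.66. *VCAM1*, an adhesion molecule, was at 5.48 and 8.43 CPM with siNC and 12.2 and 11.2 CPM with siPDL1-1, and its call was lost without siNC replicate 1 (log2 fold change 0.42), siPDL1-1 replicate 1 (FDR = 0.0239) or siPDL1-1 replicate 2 (FDR = 0.011). Among 21 genes of MHC class I antigen presentation, the peptidase gene *ERAP2* fell, from 42.6 and 40.9 CPM to 26.3 and 25.6 CPM. Of 14 genes of the RNA interference machinery, limma, edgeR and DESeq2 called 0. At an unadjusted p under 0.05 in limma, 4 were higher and 3 lower, beside 6996 of all 17982 genes in either direction. *AGO2*, the slicer of the silencing complex, was at 78.0 and 81.0 CPM with siNC and 57.6 and 57.5 CPM with siPDL1-1 (log2 fold change -0.46, FDR = 5.23e-06, limma).

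To describe the promoters of the genes that moved, the 250 bases before the start of each gene in RefSeq (GRCh38.p14) were searched on both strands for the interferon-stimulated response element, written here as GAAA, any 2 bases and GAAA again, the site bound by the complex that holds STAT2 and IRF9. It was present in 9 of the 10 called genes of the type I interferon list with a promoter in the table, in 24 of 50 list genes that were not called, and in 3.52% of all 12208 tested genes with a promoter. A match is a description of these letters and does not show binding. Part of the promoter is shown for 6 of the genes that rose, on the strand of the gene. These show how the element recurs on either strand and at different distances from the start. Only the match nearest the start is in capitals, and any other match is in lower case.
IFIT3 (chr10:89332458-89332507): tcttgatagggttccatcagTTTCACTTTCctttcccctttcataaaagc
BST2 (chr19:17405725-17405774): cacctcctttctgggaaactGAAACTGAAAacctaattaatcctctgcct
ISG15 (chr1:1013370-1013419): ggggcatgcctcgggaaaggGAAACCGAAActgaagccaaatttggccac
IFI6 (chr1:27672256-27672305): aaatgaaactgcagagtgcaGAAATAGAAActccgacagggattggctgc
IFI27 (chr14:94110621-94110670): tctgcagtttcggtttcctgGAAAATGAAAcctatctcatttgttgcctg
IFI44L (chr1:78620355-78620404): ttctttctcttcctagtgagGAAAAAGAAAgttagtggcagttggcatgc
The match nearest the start ended 42 bases before it in *IFIT3*, 115 bases in *BST2*, 98 bases in *ISG15*, 84 bases in *IFI6*, 86 bases in *IFI27* and 64 bases in *IFI44L*. Over all genes called higher, 4.13% of promoters held the element.

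Of 54 tested genes of the G2 and M phases of the cell cycle, 15 fell and 0 rose in limma, the median over the list was -0.52 (log2 fold change), and 53 had a negative value. Most of these differences were small and precise, since 48 were lower at the same FDR when no fold threshold was applied. Over all 17982 genes, 1616 were lower at that FDR and 8399 had a negative value. At an unadjusted p under 0.05, 1 gene was higher and 52 were lower. edgeR called 25 lower and DESeq2 22, and each called 0 higher. *CDK1*, the kinase that drives entry into mitosis, was at 121 and 122 CPM with siNC and 76.1 and 72.3 CPM with siPDL1-1. *MKI67*, the proliferation antigen Ki-67, was at 864 and 886 CPM with siNC and 553 CPM in each siPDL1-1 library. *CDC20*, an activator of the anaphase-promoting complex, fell from 212 and 208 CPM to 124 and 129 CPM, and *CKS2*, a partner of cyclin-dependent kinases, from 82.6 and 78.1 CPM to 47.4 and 48.1 CPM. The largest decrease in the list was that of the chromatin protein *HMGB2*, from 406 and 410 CPM to 242 and 245 CPM (log2 fold change -0.74, FDR = 2.1e-07, limma). The mitotic kinase gene *TTK* and the kinesin gene *KIF20B* fell as well, with log2 fold changes of -0.69 and -0.68.

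Of 43 S phase genes tested, 2 fell, the uracil glycosylase gene *UNG* from 43.6 and 43.7 CPM to 26.2 and 24.4 CPM and the recombination gene *RAD51AP1* from 26.6 and 26.5 CPM to 15.5 and 16.5 CPM, and 0 rose in limma, with a median of -0.17. Of these 43 genes, 35 had a negative value and 16 were lower at the same FDR without the fold threshold, beside 8399 and 1616 of all 17982 genes. At an unadjusted p under 0.05 in limma, 29 were lower and 1 higher. Outside the lists, and chosen after their values were seen, *E2F1*, the transcription factor of the G1/S transition, fell from 49.5 and 49.6 CPM to 23.6 and 22.5 CPM, *CCNA2*, cyclin A, from 132 and 129 CPM to 70.0 and 66 CPM, and the kinesin gene *KIF4A* from 120 CPM in each siNC library to 57.0 and 57.9 CPM. *CCNA2* overlaps *EXOSC9* and *KIF4A* overlaps *PDZD11*, both on the other strand. Among the 54 genes of the G2 and M phases, 5 were lower and 0 higher with siPDL1-1 than with siPDL1-2 in limma, edgeR and DESeq2 alike. The median difference was -0.13, and at an unadjusted p under 0.05 in limma 1 was higher and 29 lower. *KIF20B*, at 74.3 and 72.4 CPM with siPDL1-2, was 1 of the 5, while *CDC20* was at 128 and 127 CPM and *MKI67* at 599 and 583 CPM there. In bulk RNA, fewer cells in mitosis and less of these mRNAs per cell cannot be told apart.

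The promoters of the mitotic genes were searched in the same way for the cell cycle genes homology region, written TTTGAA, an element bound by the DREAM and MuvB complexes. Of the 13 called genes of the list with a promoter, 9 held it, as did 57.8% of the 45 list genes with a promoter, 24.9% of the promoters of all genes called lower, 9.21% of those called higher and 12.4% of those tested. The same element lay close to the start in 4 of the genes described above, shown on the strand of the gene. Again only the match nearest the start is in capitals, and any other match is in lower case.
CDK1 (chr10:60778445-60778477): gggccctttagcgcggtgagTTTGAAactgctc
CKS2 (chr9:89311146-89311191): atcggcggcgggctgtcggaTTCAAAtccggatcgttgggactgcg
MKI67 (chr10:128126427-128126472): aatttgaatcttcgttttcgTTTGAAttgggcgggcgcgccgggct
CDC20 (chr1:43358896-43358941): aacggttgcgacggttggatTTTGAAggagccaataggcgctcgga
The match in capitals ended 8 bases before the start in *CDK1*, 24 bases in *CKS2* and in *MKI67* and 60 bases in *CDC20*.

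Of 34 NFkB target genes tested, 4 fell, 2 rose and 28 were not called, and the median was -0.13. Of those that fell, 3 encode chemokines. *CXCL8*, or interleukin-8, a neutrophil attractant, was at 7.44 and 7.59 CPM with siNC and 1.59 and 1.74 CPM with siPDL1-1 (log2 fold change -1.68, FDR = 8.88e-07, limma). *CXCL2* fell from 3.48 and 3.82 CPM to 0.957 and 0.871 CPM, and *CXCL3* from 4.70 and 4.71 CPM to 1.48 and 1.62 CPM. In the siPDL1-2 libraries the 3 chemokines were also low, between 1.01 and 1.95 CPM. *SOD2*, the mitochondrial superoxide dismutase, fell from 120 and 117 CPM to 69.8 and 70.0 CPM and was at 115 CPM in each siPDL1-2 library, with *WTAP* and *ACAT2* overlapping it on the other strand. The genes of the list that rose were *PLAU*, the urokinase gene, and *VCAM1*.

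Targets of YAP and TEAD, the transcription factors of the Hippo pathway, fell in part. Of 22 tested, 5 fell and 0 rose in limma, as in edgeR and DESeq2, with a median of -0.21. At an unadjusted p under 0.05 in limma, 5 were higher and 12 lower. *CCN1*, a matricellular protein, was at 190 CPM in each siNC library and 94.8 and 96.3 CPM with siPDL1-1. *CCN2*, its relative, fell from 40.2 and 40.7 CPM to 21.2 and 19.2 CPM, and *ANKRD1* from 99.4 and 106 CPM to 55.1 and 55.4 CPM. The kinase gene *NUAK2* and *GADD45B* were the others, with log2 fold changes of -0.77 and -0.68. Compared with siPDL1-2, *ANKRD1* was lower (-0.69, FDR = 1.22e-06, limma) and *CCN2* higher (0.61, FDR = 1.81e-05) with siPDL1-1.

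Of 40 genes of the extracellular matrix tested, 14 rose, 1 fell and 25 were not called, with a median of 0.37. A positive value was found for 37 of them, beside 9580 of all 17982 genes. *FBN1*, the microfibril protein fibrillin, was at 80.9 and 81.3 CPM with siNC and 182 CPM in each siPDL1-1 library (log2 fold change 1.16, FDR = 2.43e-09, limma). *COL1A2*, a chain of type I collagen, rose from 74.4 and 73.7 CPM to 142 and 144 CPM, *COL5A1* from 317 and 345 CPM to 605 and 621 CPM, and *COL16A1* from 2.64 and 3.04 CPM to 6.64 and 7.34 CPM. *FN1*, fibronectin, rose from 436 and 440 CPM to 737 and 749 CPM, and the membrane protease gene *MMP14* from 142 and 144 CPM to 254 and 245 CPM. The proteoglycan gene *BGN*, biglycan, rose from 18.3 and 16.8 CPM to 34.9 and 34.2 CPM and overlaps *HAUS7*. In the direct comparison with siPDL1-2, limma called 4 of the 40 genes higher with siPDL1-1 and 0 lower. edgeR and DESeq2 also called 0 lower. At an unadjusted p under 0.05 in limma, 28 were higher and 2 lower. *FBN1*, at 126 and 117 CPM with siPDL1-2, did not pass the fold threshold (log2 fold change 0.58).

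**Figure D4:**
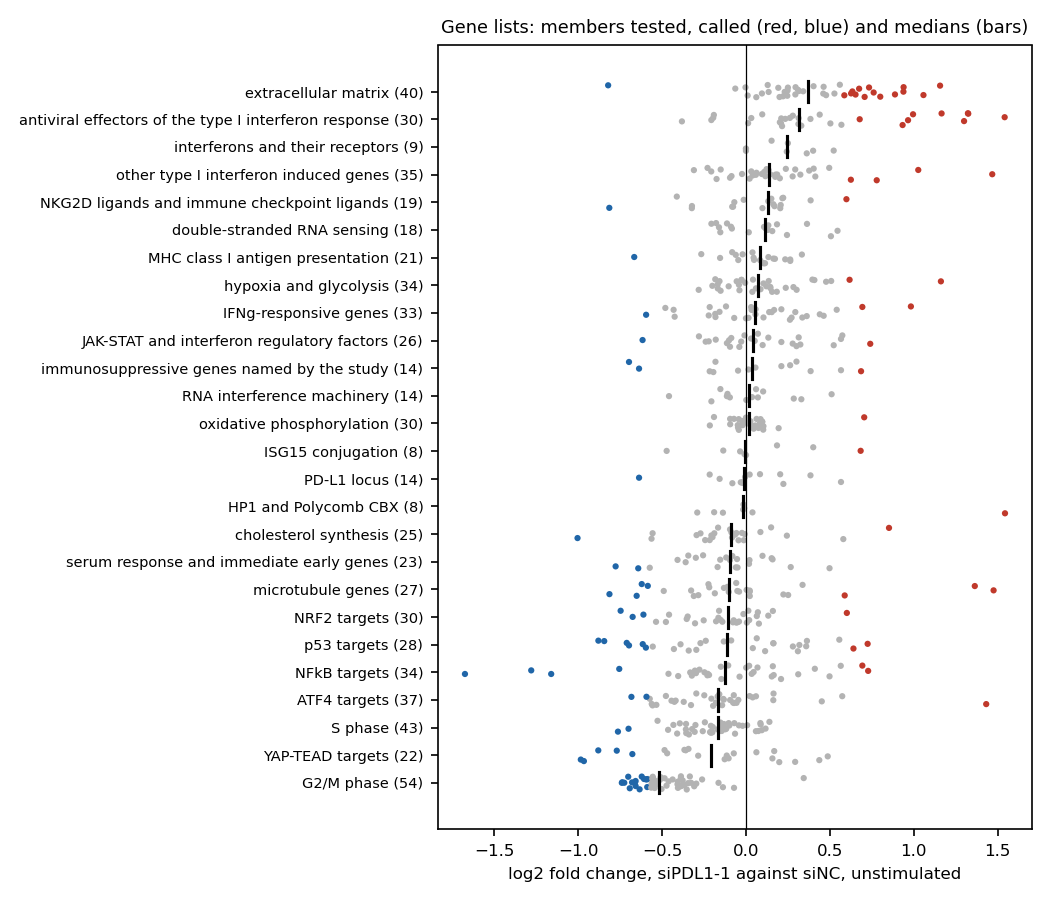
Log2 fold change of siPDL1-1 against siNC for the tested members of 26 gene lists, ordered by median, with 1 point per gene, a black bar at the median and the number tested in brackets. Red points were called higher and blue points lower, with the extracellular matrix list (median 0.37) at the top and the G2/M list (median -0.52) at the bottom.

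Several lists held calls in both directions, beside 2.55% higher and 1.45% lower of all genes tested. Some leaned lower, with 29 negative and 8 positive values for ATF4 targets, 21 and 9 for NRF2 targets and 20 and 5 for cholesterol synthesis. The p53 targets had 15 negative and 13 positive values and the microtubule genes 17 and 10. Over all 17982 genes, 8399 were negative and 9580 positive. Of 28 p53 targets, 2 rose and 6 fell, among them *PLK2* (-0.88), the proapoptotic gene *BBC3* (-0.84), and *MDM2*, the ligase that degrades p53, which fell from 47.8 and 48.0 CPM to 28.5 and 29.4 CPM, and *ZMAT3* rose (0.73). Of 37 ATF4 targets, *PSAT1* rose, *DDIT3*, the stress factor CHOP, which overlaps *MARS1*, fell from 52.2 and 52.4 CPM to 32.4 and 32.0 CPM, and 1 other fell. Of 30 NRF2 targets, 1 rose and 3 fell, among them *SRXN1*, sulfiredoxin (-0.68). Of 27 microtubule genes, 3 rose, *MAPRE1* and *STMN3* among them, and 4 fell, among them *TUBA1B*, an alpha-tubulin, from 1923 and 1889 CPM to 1081 and 1087 CPM. Of 25 genes of cholesterol synthesis, *SC5D*, a desaturase, rose (0.85) and *INSIG1* fell.

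Of 34 genes of hypoxia and glycolysis, 2 rose, beside 2.55% of all genes tested. Among them, *PGAM1*, phosphoglycerate mutase, rose from 344 and 353 CPM to 783 and 780 CPM. Of 30 nuclear genes of oxidative phosphorylation, *ATP5PB*, a subunit of ATP synthase, rose from 104 and 102 CPM to 168 and 169 CPM, and the median was 0.02. Of 15 mitochondrially encoded genes tested, a set chosen after its values were seen, 1 rose, 15 had a positive value and the median was 0.31, beside the higher mitochondrial share in the siPDL1-1 libraries given above. The 1 called, *MT-CYB*, was at 0.61 and lost its call without siNC replicate 2 (log2 fold change 0.46) or siPDL1-1 replicate 2 (0.57).

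Of 14 immunosuppressive genes that the study names, 1 rose and 2 fell. Beside *CD274*, the death receptor gene *FAS* fell from 8.23 and 7.19 CPM to 4.21 and 4.52 CPM (log2 fold change -0.70, FDR = 3.28e-05, limma), and it overlaps *ACTA2* on the other strand. *TDO2*, an enzyme that degrades tryptophan, rose from 7.00 and 6.25 CPM to 10.7 and 11.9 CPM and was at 11.5 and 11.0 CPM with siPDL1-2. *CSF1*, a macrophage growth factor, was at 92.7 and 91.5 CPM with siNC and 86.4 and 91.9 CPM with siPDL1-1, and these groups overlapped. *LGALS9*, galectin-9, was at 6.61 and 6.83 CPM with siNC and 9.63 and 8.57 CPM with siPDL1-1, under the fold threshold (log2 fold change 0.39). Among 19 NKG2D and checkpoint ligands, *MICB*, an NKG2D ligand, rose from 13.4 and 13.0 CPM to 20.6 and 20.4 CPM, and *VTCN1*, the checkpoint ligand B7-H4, fell from 1.86 and 2.23 CPM to 0.725 and 0.730 CPM. The call of *MICB* was lost without siNC replicate 2, where its log2 fold change was 0.58, and that of *VTCN1* with a pseudocount of 0.1 (FDR = 0.0216).

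The effect of siPDL1-1 was also compared between cells without and with IFNγ. After IFNγ it was higher for 160 genes (0.89%) and lower for 14 (0.0779%) on the log2 scale, in the same limma fit's interaction term. Of the 73 genes of the type I interferon list, 49 were among the higher and 0 among the lower. This count depends on the log2(CPM + 1) scale, which compresses the unstimulated change of genes near the detection limit. In edgeR, *OAS2* and *OASL* were not called for this difference. *IFIT1*, at 9.70 and 8.55 CPM with siNC and 19.5 and 18.8 CPM with siPDL1-1 in unstimulated cells, was at 52.9 and 51.6 CPM with siNC and 581 and 613 CPM with siPDL1-1 after IFNγ, a difference of 2.49 on the log2 scale (limma, FDR = 2.43e-10). *BST2* had a difference of 0.31 (limma, FDR = 0.0393) and was not called. Of the 54 G2/M genes, 0 were called by limma, edgeR or DESeq2, with 1 higher and 23 lower at an unadjusted p under 0.05 in limma. Over all 17982 genes, 2786 had an interaction term at an unadjusted p under 0.05 in limma. For *CD274*, at 71.2 and 76.0 CPM with siNC and 61.0 and 66.7 CPM with siPDL1-1 after IFNγ, the difference was 0.43 (limma, FDR = 0.0399), which did not pass the threshold. The log2(CPM + 1) scale compresses the decrease of *CD274* at its low unstimulated level, so this difference is understated.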

How the data were processed

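RNA-seq of U251 cells was analysed from the authors' table. Trimming, mapping to GRCh38 (Ensembl genes) and counting without regard to strand were done by the authors in CLC Genomics Workbench. They deposited normalized CPM, a signal value for each gene in each library, whose columns do not share 1 total. At a tolerance of 0.01 reads, at least 99.99% of values came out as whole reads, and these reads served for filtering (filterByExpr, minimum count 10, minimum total 15) and count tests. limma (3.58.1, R 4.3.3) was fitted to log2(CPM + 1) of all 12 libraries as 6 groups with 6 residual degrees of freedom, and genes were called at FDR < 0.01 (Benjamini-Hochberg over 17982 genes) and fold change > 1.5. edgeR 4.0.16 and DESeq2 1.42.0 on the recovered reads were alternatives, of which edgeR called 872 genes, beside other scaling, pseudocount, filter, sample and replicate choices. The fits were tested on simulated data. The limma p-values rest on the spread between the 2 libraries of a group, pooled over all 6 groups and moderated across genes. The IFNγ-stimulated groups are part of that pool, so it is not the spread of the 4 compared libraries alone.

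The members and the 29 lists were chosen with earlier results of these data known. Named genes are those the study names, the 15 largest increases and decreases among called genes of at least 1 CPM without overlap between groups, called list members (at most 6 a list), and the 5 largest differences in each direction against siPDL1-2. Python 3.11.15 was used for tables and promoters. The siRNA sequences are not analysed here. The results for some genes are not reported here.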

Additional observations from a re-analysis of the deposited data

Results flagged for a closer look

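The effect of siPDL1-1 was compared between unstimulated and IFNγ-stimulated cells with the interaction term of the limma fit, and 160 of 17982 genes (0.89%) had a higher and 14 (0.0779%) a lower log2 fold change after IFNγ. Among the genes with the largest changes in unstimulated cells, 9 differed in this way.

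For *OAS1* the difference was 2.76 on the log2 scale (FDR = 1.5e-08, limma), with 11.4 and 10.8 CPM with siNC and 239 and 234 CPM with siPDL1-1 after IFNγ. The differences were 2.11 for *IFI44L*, 1.58 for *IFIT3*, 2.15 for *OASL* and 3.04 for *OAS2*. The last 2 depend on the scale, because both genes were near the detection limit in unstimulated control cells. In edgeR, on the recovered reads, the difference was 0.57 for *OAS2* (FDR = 0.74) and 0.43 for *OASL* (FDR = 0.717), against 2.09 for *OAS1* (FDR = 3.63e-05), 1.72 for *IFI44L* (FDR = 2.06e-05) and 1.28 for *IFIT3* (FDR = 8.06e-06).

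Among the 15 largest decreases in unstimulated cells, 4 had a higher log2 fold change after IFNγ. They were picked for a low unstimulated log2 fold change, which the difference subtracts. A higher value after IFNγ is thus partly built in for these genes. *RGS4* differed by 1.43, with 22.6 and 23.6 CPM with siNC and 17.8 and 20.2 CPM with siPDL1-1 after IFNγ. *CXCL8* differed by 1.28 and *CXCL3* by 0.98, and *CXCL8* was at 3.20 and 2.80 CPM with siNC and 1.65 and 2.49 CPM with siPDL1-1 after IFNγ. *ANKRD33B* differed by 0.66 (FDR = 0.0014, limma). For *CXCL3* edgeR gave an FDR of 0.0162.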

How the results depend on the processing

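Without the fold threshold, 3379 genes differed between siPDL1-1 and siNC and 4338 between siPDL1-1 and siPDL1-2, against 720 and 783. edgeR's test called 25 genes of the G2/M list lower, against 15. Under the other alternatives (edgeR and DESeq2 tests, DESeq2's size factors, a pseudocount of 0.1, no filter, only the groups compared, the replicate block) the number called for siPDL1-1 against siNC lay between 692 and 880. With 1 library left out it lay between 604 and 748, and that against siPDL1-2 between 648 and 794. Same-numbered libraries of siNC and siPDL1-1 showed no shared deviation (r of their replicate differences was -0.0081). Over all pairs of groups r ran from -0.132 (siNC without and with IFNγ) to 0.1935 (siNC and siPDL1-1 after IFNγ). Such values cannot show whether the libraries were paired by experiment. The replicate block gave 721 calls. *CD274* kept its call under each alternative, with log2 fold changes of -0.86 to -0.60. Low genes are limited by depth, since 3 reads amount to 0.0706 to 0.147 CPM.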
